A study of Mus musculus with 232 samples.

Results

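Newly formed oligodendrocytes are the cells that have left the precursor state and have begun to differentiate, but do not yet ensheathe axons. They were studied here in mouse dentate gyrus as the cells that the authors placed in the cluster named NFOL, which came to 232 of 24185 single cells. The deposited annotation gave 1 cluster to every cell, and members were taken by that name alone, at all ages. No NFOL cell was annotated in the embryo (E16.5, 2285 cells) or on the day of birth (P0, 4779 cells). There were 33 at postnatal day 5 (P5), 31 at P18, 40 at P19, 76 at P23, 19 at P120 and 33 at P132. The clusters OPC (794 cells) and MOL (704 cells), read here as oligodendrocyte precursors and mature oligodendrocytes, served for comparison.

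All tissue was dentate gyrus cut from brain slices, dissociated with papain and captured on the 10X Chromium system, kit version 2. The animals of E16.5, P0 and P5 were CD-1 mice of sex given as unknown. Male CD-1 mice gave P18 and P23, while P19 came from female C57Bl/6 mice. P120 and P132 were hGFAP-GFP mice, in which the human GFAP promoter drives green fluorescent protein, and their cells were sorted for that protein; P120 pooled 2 males and 1 female, P132 pooled 3 males and 1 female. Adult age, mouse line and sorting therefore cannot be told apart, and P19 alone differs from its neighbours in strain and sex. Each age is 1 pool of animals and counts as 1 sample; P18, P19 and P23 are called juvenile, P120 and P132 adult. With 1 pool per age, p-values measure the spread between pools of nearby ages.

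Differentiation in this lineage starts from a dividing precursor that carries the platelet-derived growth factor receptor Pdgfra and the proteoglycan Cspg4. On leaving the cell cycle the cell passes through a short premyelinating stage marked by Enpp6, a choline phosphodiesterase, Bcas1, a cytoplasmic protein of myelinating membranes, Bmp4, a secreted bone morphogenetic protein, and Tcf7l2, a transcription factor of the Wnt pathway. Cells that go on to myelinate raise the myelin proteins and the lipid-synthesis enzymes that build the sheath.

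The label was checked against these 4 markers. At least 1 UMI (a unique molecular identifier, which counts 1 captured transcript) of any of them was found in 33 of 33 NFOL cells at P5, 30 of 31 at P18, 40 of 40 at P19, 76 of 76 at P23, 19 of 19 at P120 and 32 of 33 at P132. For levels, the UMIs of a cluster's cells at 1 age were summed and scaled to a total of 1000000 (CPM). Enpp6 stood at 745 CPM in NFOL at P5, 774 at P18, 650 at P19, 705 at P23, 441 at P120 and 487 at P132. In OPC it was at 0 CPM at 5 of the 6 ages and at 1.32 CPM at P120, and in MOL it lay between 19.9 and 114 CPM. To set cells of unlike depth side by side, each was thinned to 1000 UMIs, which left out none because the smallest cell held 1114. After thinning, 32 of 33, 26 of 31, 37 of 40, 69 of 76, 18 of 19 and 27 of 33 NFOL cells, from P5 to P132, held a UMI of any of the 4 markers. Of the thinned NFOL cells, 36.4% to 51.6% had an Enpp6 UMI (57.6% to 82.9% before), against 0% of OPC. Granule cells, which should lack Enpp6, had one in at most 0.176% of cells (0.264% before), with median depths of 1983 to 5523 UMIs against 2087 to 5499 in NFOL. The precursor marker Pdgfra was found in 0% to 2.63% of thinned NFOL cells against 49.1% to 92.6% of OPC. The OPC markers as a set (Pdgfra, Cspg4, Ptprz1, Vcan and Lhfpl3) were less clear. They summed to 698 to 1072 CPM in NFOL against 2846 to 6496 in OPC. Only 31.6% to 57.6% of thinned NFOL cells, depending on age, had no UMI of any of them. Ermn, a cytoskeletal protein of mature sheaths, was at 0 CPM in NFOL at all 6 ages, and 61.5% to 72.9% of thinned MOL cells had a UMI. The MOL markers as a set (Mog, Mobp, Mal, Opalin, Trf and Ermn) were not at 0. They summed to 110 to 350 CPM in NFOL against 5953 to 18866 in MOL, and 71.1% to 90% of thinned NFOL cells had no UMI of them. Values of the other 3 markers are given with the other leading genes, and none went against the label.

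The NFOL sums held 190724 UMIs at P5, 68469 at P18, 93908 at P19, 346030 at P23, 77151 at P120 and 75942 at P132, and this depth limits what low genes can show. Markers of other cells were low in them: the summed neuronal markers lay between 77.8 and 388 CPM, astrocyte markers between 131 and 415 CPM, and the markers of intermediate neuronal progenitors were at 0 CPM throughout. The summed microglia and perivascular macrophage markers were at 5.24 to 553 CPM with a median of 33.4, and the highest value, at P132, came from 3 of 33 cells. Globin genes and Alas2 summed to 89.1 CPM at P5 and to between 0 and 21.3 at the later ages. The 9 mitochondrially encoded transcripts summed to 29825 CPM at P120, the lowest age, and 104909 CPM at P18, the highest. Of the 232 cells, 7 shared a barcode with a cell of another library, 0 of them within an age. The cell names of P5 and P23 share a prefix up to the library number, as do those of P19 and P120.

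**Figure D1:**
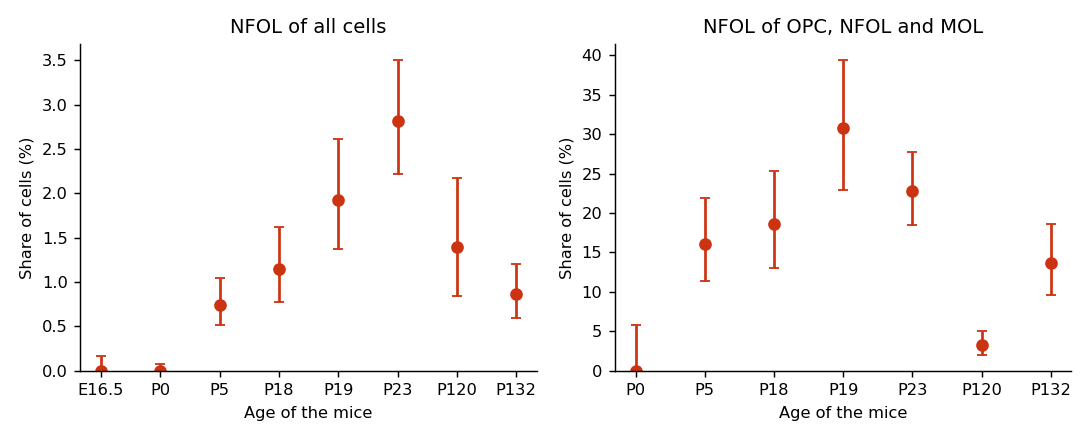
NFOL cells as a percentage of all cells and of oligodendrocyte-line cells (OPC, NFOL and MOL) at each age, with exact 95% binomial intervals. NFOL cells are 0 at E16.5 and P0, reach 2.81% of all cells at P23 and 30.8% of the line at P19, and are lowest among later ages in the line at P120 (3.22%).

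NFOL cells were first found at P5, and their share of all cells was higher at each juvenile age. The adult cells were sorted, so their shares are not ranked against these. They were 0.744% of all cells at P5 (exact Clopper-Pearson 95% interval 0.513 to 1.04), 1.14% at P18 (0.778 to 1.62), 1.92% at P19 (1.38 to 2.61) and 2.81% at P23 (2.22 to 3.51). The 0 of 2285 cells at E16.5 allow a share of up to 0.131%, and the 0 of 4779 at P0 up to 0.0628%. The 3 juvenile ages all lay above the 3 perinatal ones: the mean share was 1.96% ± 0.836 (SD, n = 3) against 0.248% ± 0.430 (SD, n = 3), a difference of 1.71 percentage points (two-sided exact permutation p = 0.1, the smallest that 3 against 3 can give). These intervals cover counting error only.

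Within the oligodendrocyte line P19, not P23, held the highest share. NFOL made up 16.1% of OPC, NFOL and MOL cells at P5 (11.3 to 21.9), 18.6% at P18 (13.0 to 25.3), 30.8% at P19 (22.98 to 39.5) and 22.8% at P23 (18.4 to 27.7), while 0 of 61 such cells at P0 allow up to 4.92%. At E16.5 the line had only 2 cells, which set no useful limit. The juvenile mean of 24.1% ± 6.195 exceeded the perinatal 5.37% ± 9.29 by 18.7 points (SD, n = 3 each, exact permutation p = 0.1), with the 2 cells of E16.5 counted as 1 age at 0. Without E16.5 the difference was 16.003 points (exact permutation p = 0.2), and the P5 and P18 intervals overlap. In the sorted adult cells NFOL were 1.39% of all cells at P120 (0.841 to 2.17) and 0.862% at P132 (0.594 to 1.21). Their share of the line was 3.22% at P120 (1.95 to 4.98), where 383 of the cells were OPC, and 13.6% at P132 (9.58 to 18.6). The 2 adult intervals do not overlap, and what the sort contributes to them was not tested.

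The next values compare NFOL with OPC and MOL at the 5 ages at which all 3 clusters had 10 or more cells (P18 to P132). They are descriptions with no test, because the same cells and genes had defined the clusters. A gene counts as higher or lower when CPM plus a pseudocount of 10 differs by more than 2-fold at every one of the 5 ages. NFOL exceeded both neighbours in 72 of 16309 detected genes (0.441%) and lay under both in 10 (0.0613%). From OPC to NFOL, 210 genes (1.29%) were higher and 290 (1.78%) lower; from NFOL to MOL, 277 (1.7%) were higher and 299 (1.83%) lower.

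Ranked by their smallest log2 ratio over the higher of OPC and MOL across these ages, the genes that set NFOL apart were led by Bmp4 at 3.71, Fyn at 3.46 and Frmd4a at 3.26. Fyn is the Src-family kinase that links axonal contact to process outgrowth and local Mbp translation. Next came Tmem108 at 3.11, the membrane-skeleton protein gene Epb41l2 at 2.92, the dynein light chain gene Dynll2 at 2.73, the translation inhibitor gene Pdcd4 at 2.68, Gp1bb at 2.64 and the phosphoinositide 3-kinase subunit gene Pik3r3 at 2.62. Tcf7l2 followed at 2.45, Enpp6 at 2.42, the sulfotransferase gene Ust at 2.37, Rassf10 at 2.28, Mpzl1 at 2.25, the small GTPase gene Rnd2 at 2.19 and Bcas1 at 2.12. The list also held the long noncoding RNA 9530059O14Rik at 2.11, the mannosidase gene Man1c1 at 1.93 and the integrin gene Itgb7 at 1.86. Enpp6, Bmp4, Bcas1 and Tcf7l2 were named as markers beforehand, so their place in this order is no independent result.

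Bmp4 was at 755 CPM in NFOL at P5, 467 at P18, 660 at P19, 731 at P23, 1698 at P120 and 593 at P132. OPC held 10.2 to 68.5 CPM of it and MOL 0 to 8.96, so no age of either reached the lowest NFOL value. Fyn was at 2171, 2103, 2854, 2283, 2787 and 1975 CPM in NFOL in the same order of ages, against 73.8 to 226 in OPC and 47.8 to 125 in MOL. Frmd4a, a scaffold protein gene of epithelial polarity, stood at 325 CPM at P5 and between 873 and 1712 CPM later. Tcf7l2 ran from 430 CPM at P5 to 752 at P120, with 0 to 117 in OPC and 23.2 to 84.01 in MOL. Bcas1 was highest at P5, with 1788 CPM, and lowest at P132, with 619; OPC held 73.8 to 267 and MOL 59.0 to 185.

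Set against every other cluster with 10 or more cells (12 to 20 clusters per age), 10 genes were ranked the same way over all 6 ages. Each was highest in NFOL at 6 of 6 ages. Bmp4 led with a smallest log2 ratio of 3.69, followed by Fyn at 3.22, Enpp6 at 2.42, Rnd2 at 2.19 and Bcas1 at 2.12. The remainder were 9530059O14Rik at 1.72, the orphan receptor gene Gpr17 at 1.68, the Rac GTPase-activating protein gene Chn2 at 1.64, the intermediate filament gene Bfsp2 at 1.61 and the PDZ adaptor gene Gipc1 at 1.59.

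**Figure D2:**
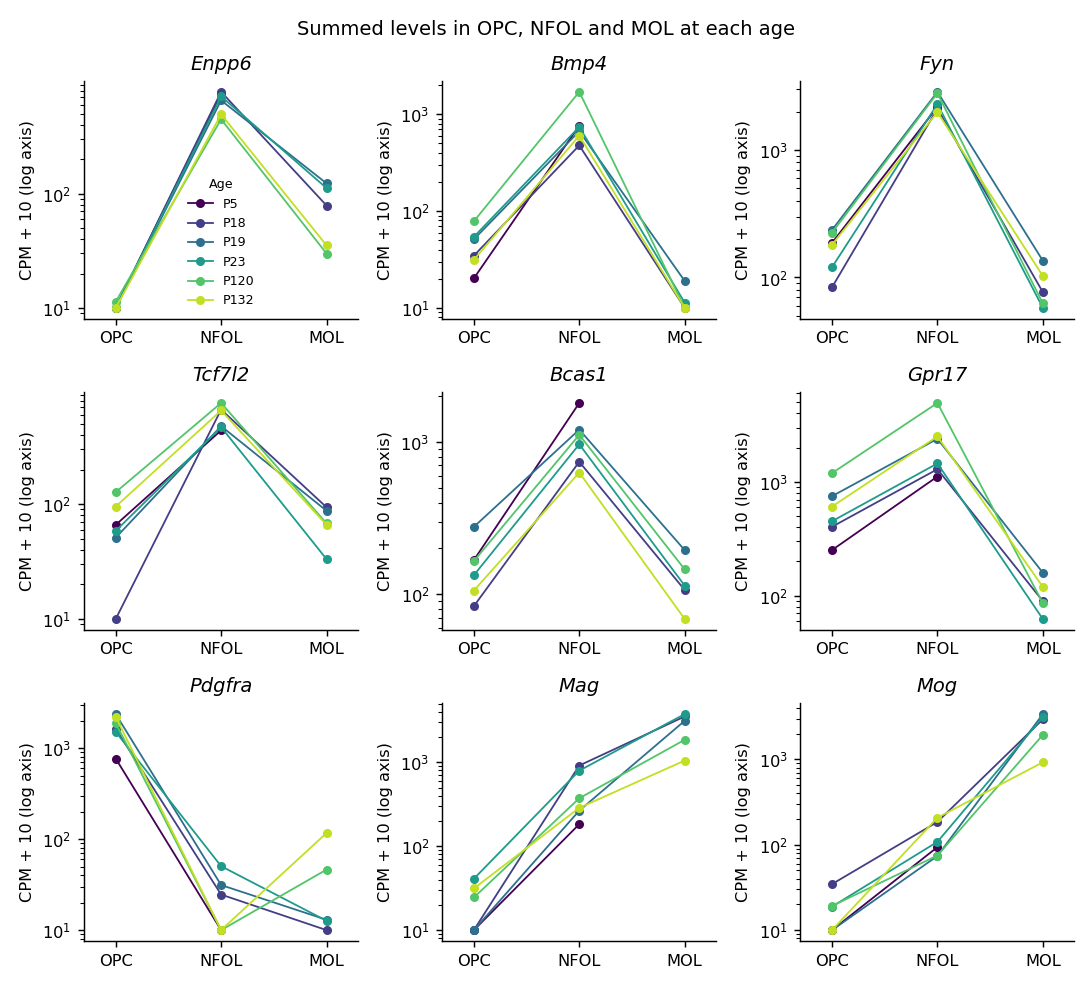
CPM plus 10 on a log axis for 9 genes in OPC, NFOL and MOL, 1 line per age. Enpp6, Bmp4, Fyn, Tcf7l2, Bcas1 and Gpr17 peak in NFOL, Pdgfra is highest in OPC, and Mag and Mog are highest in MOL.

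The promoters of 3 of these genes are printed because they are markers of the class and stand for a ligand, an enzyme and a transcription factor. Each runs from 250 bases before to 50 after the transcription start in RefSeq on GRCm38.p6, in the direction of the gene. Capitals mark ACAAT or its reverse complement ATTGT, the core of SOX-family sites. Bmp4 lies at chr14:46390620-46390919 on the minus strand and held 0 matches, Enpp6 at chr8:46986637-46986936 on the plus strand held 1, and Tcf7l2 at chr19:55741560-55741859 on the plus strand, the first of 2 listed starts, held 2.

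Bmp4: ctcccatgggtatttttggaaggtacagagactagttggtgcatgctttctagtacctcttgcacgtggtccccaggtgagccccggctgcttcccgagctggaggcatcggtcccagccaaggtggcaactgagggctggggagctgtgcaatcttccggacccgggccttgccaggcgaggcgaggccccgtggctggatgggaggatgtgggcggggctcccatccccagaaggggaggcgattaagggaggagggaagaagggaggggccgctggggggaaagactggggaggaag
Enpp6: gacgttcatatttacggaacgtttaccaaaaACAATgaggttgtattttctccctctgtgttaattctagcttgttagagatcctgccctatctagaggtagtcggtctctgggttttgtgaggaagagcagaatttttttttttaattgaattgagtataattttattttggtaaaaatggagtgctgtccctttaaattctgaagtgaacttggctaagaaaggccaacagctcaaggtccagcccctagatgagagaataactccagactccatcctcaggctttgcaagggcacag
Tcf7l2: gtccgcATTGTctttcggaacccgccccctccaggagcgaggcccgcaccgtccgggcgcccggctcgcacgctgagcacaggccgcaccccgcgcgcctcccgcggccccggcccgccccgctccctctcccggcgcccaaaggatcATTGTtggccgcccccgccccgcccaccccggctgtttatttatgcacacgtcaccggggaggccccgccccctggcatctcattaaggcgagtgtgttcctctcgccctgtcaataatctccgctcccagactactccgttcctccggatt

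Of the 20 genes ranked above OPC and MOL, 16 had a promoter in the RefSeq table, with 24 promoters between them. ACAAT on either strand occurred in 7 of those 24 promoters (29.2%) against 31.0% of all 32851. CTTTGA, the core of sites for the TCF family to which Tcf7l2 belongs, occurred in 12.5% against 16.003%. The E-box CAGCTG occurred in 12.5% against 16.3%. The shares lay near those of all promoters, and a match or its lack says nothing of binding.

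The premyelinating list, 20 genes around the 4 markers, gave 12 of the 72 genes that exceeded both neighbours. Of its 20 members, all detected, 14 were higher in NFOL than in OPC, 14 were lower in MOL than in NFOL, and 12 did both. Summed, they reached 14586 CPM in NFOL at P5, 18183 at P18, 19200 at P19, 19576 at P23, 25690 at P120 and 18554 at P132. OPC summed to 1531 to 4084 CPM and MOL to 1551 to 3770, so the clusters did not overlap at any age. Sirt2, a tubulin deacetylase of oligodendrocytes, was among the higher members with 3748 to 5841 CPM in NFOL. The list was written with earlier results of these data known, so the counts describe the class and do not test it.

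Transcription factors came first in order of role. Of 17 lineage factors, Nkx6-2, Myrf, Tcf7l2 and St18 were higher in NFOL than in OPC, and Olig1, Nfia and Nfib were lower. Myrf, the regulator that switches on myelin genes, was at 178, 175, 181, 150, 246 and 158 CPM in NFOL from P5 to P132, a narrow range; OPC held 0 to 31.6 and MOL 155 to 379. Nkx6-2, a homeodomain factor of myelinating cells, was at 0 CPM in NFOL at P5 and 10.6 to 64.8 later, against 0 in OPC at all 6 ages and 263 to 801 in MOL. Olig1 was at 453 to 1322 CPM in NFOL and 1082 to 2750 in OPC. Nkx2-2, a repressor needed for the start of differentiation, was at 179 to 635 CPM in NFOL and was lower in MOL.

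Of 16 factors that hold precursors back, none was higher in NFOL than in OPC, and members that were lower included Id2, Hes1, Hes5 and Sox11. Hes5, a Notch target, was at 0 to 13.0 CPM in NFOL against 139 to 589 in OPC, without overlap. Hey1, Sox2, Sox4 and Sox6 were instead lower in MOL than in NFOL. Sox4 was at 380 to 1478 CPM in NFOL against 25.9 to 98.4 in MOL. Of 16 Notch pathway genes, Notch1, Hes1 and Hes5 were lower in NFOL than in OPC. None of 15 cycling genes was higher and 6 were lower (Top2a, Ccnb1, Cenpf, Ube2c, Tpx2 and Hmgb2); Top2a, the mitotic topoisomerase, was at 0 CPM in NFOL at all 6 ages and at 63.2 to 344 in OPC. The list named cell cycle exit also holds cyclin genes, and its members lower in NFOL than in OPC were Cdkn2c and the cyclin genes Ccnd1 and Ccnd2.

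Precursor surface proteins differed in the step at which they were lower. Of 20, Pdgfra, Cspg4, Ptprz1, Lhfpl3, C1ql1, Cspg5, Ncan, Nxph1 and Cacng4 were lower in NFOL than in OPC, and Gpr17 and Cd9 were higher. Vcan, Lhfpl3, C1ql1, Gpr17, Tnr, Cd9 and Opcml were lower in MOL than in NFOL, and Fgfr2 and Lpar1 were higher. Pdgfra was at 0, 14.6, 21.3, 40.5, 0 and 0 CPM in NFOL from P5 to P132, against 760 to 2362 in OPC. Ptprz1, a receptor phosphatase, was at 204 to 451 CPM in NFOL against 1239 to 2784 in OPC. Vcan and Tnr, matrix proteins, were not among the 9: Tnr was at 902 to 1685 CPM in NFOL, 270 to 1045 in OPC and 17.9 to 118 in MOL. Gpr17, a receptor that restrains maturation, was at 1106 CPM at P5, 1285 at P18, 2385 at P19, 1445 at P23, 4938 at P120 and 2502 at P132. It stood at 242 to 1186 CPM in OPC and 52.4 to 149 in MOL. Of 28 glutamate and GABA receptors and ion channels, none was higher in NFOL than in OPC and 5 were lower (Grm5, Kcnd2, Scn1a, Scn3a and Cacng4). The AMPA receptor gene Gria2 stood at 467 to 1896 CPM in NFOL against 56.8 to 596 in MOL.

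Myelin genes stood between the levels of OPC and MOL, with exceptions. Of 25, those higher in NFOL than in OPC included Mbp, Mag, Mog, Cnp, Cldn11, Cd9, Cryab, Tmem88b and Sept4, and none was lower; 15 were higher again in MOL, and Cd9 alone was lower there. Mag, an adhesion receptor of the inner sheath membrane, was at 173, 906, 256, 786, 363 and 277 CPM in NFOL from P5 to P132, with 0 to 30.9 in OPC and 1040 to 3747 in MOL. Mbp, which compacts the sheath, was at 5652, 9815, 7497, 7338, 4809 and 6479 CPM in NFOL and 5298 to 10968 in MOL, so for this gene the 2 clusters overlapped. Mog, of the outermost membrane, was at 63.9 to 198 CPM in NFOL against 916 to 3387 in MOL. Mobp was at 0 to 176 CPM in NFOL against 1779 to 5541 in MOL. Of 20 mature oligodendrocyte genes, Ptgds and Cryab were higher in NFOL than in OPC and 12 were higher in MOL than in NFOL.

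Lipid synthesis differed by pathway. Of 18 galactolipid and sphingolipid genes, Ugt8a, Fa2h and Elovl7 were higher in NFOL than in OPC, and Ugt8a and Cers2 were higher in MOL than in NFOL. Ugt8a, which makes galactosylceramide, was at 272 to 730 CPM in NFOL and 763 to 3149 in MOL. None of 16 fatty acid synthesis genes passed 2-fold at every age in either step, and of 24 cholesterol genes Cyp51 was higher in MOL than in NFOL.

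Of 30 process outgrowth and cytoskeleton genes, Fyn, Map1b, Tppp, Wasf1, Tubb4a, Tuba1a, Dynll2 and Dpysl2 were higher in NFOL than in OPC, and Stmn1, Stmn4 and Dpysl3 were lower. Map1b, a microtubule-associated protein gene, was at 467 to 1063 CPM in NFOL against 20.5 to 274 in OPC. Stmn1, which destabilises microtubules, was at 25.9 to 83.9 CPM in NFOL against 96.2 to 722 in OPC and 627 to 1609 in MOL, so NFOL held the least of the 3 clusters at each of the 5 ages they share. Tuba1a was at 4104 to 7002 CPM in NFOL and 320 to 1146 in MOL. Of 20 axon-glia adhesion genes, Nfasc, Mag and Rtn4 were higher in NFOL than in OPC and Cntn1 was lower. Nfasc, the neurofascin gene, was at 661 to 1804 CPM in NFOL, 21.3 to 164 in OPC and 528 to 1287 in MOL. Of 23 detected BMP and Wnt genes, Bmp4 and Tcf7l2 were higher in NFOL than in OPC and Bmp7 was lower.

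The same lists were then read in single cells. Thinned to 1000 UMIs, the median NFOL cell held 15 premyelinating UMIs at P5, 18 at P18, 19 at P19, 19.5 at P23, 24 at P120 and 18 at P132, while medians were 1 to 4 in OPC and 1 to 2 in MOL. The median for myelin genes was 13, 37, 31.5, 28.5, 19 and 34 UMIs in the same order. At P19 the middle portion of NFOL cells, between the quartiles, held 16 to 54.5 myelin UMIs and 17 to 23 premyelinating UMIs. In MOL the myelin medians were 151 at P18, 188 at P19, 152.5 at P23, 64.5 at P120 and 68.5 at P132, above every NFOL median.

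Across NFOL cells of 1 age, cells with more precursor surface UMIs tended to hold fewer myelin UMIs. Spearman's rho was -0.21 at P5 (33 cells), -0.34 at P18 (31), -0.50 at P19 (40), -0.33 at P23 (76), -0.63 at P120 (19) and -0.39 at P132 (33). All cells were thinned to the same depth, so the 2 counts compete for the same UMIs, and the values are descriptions. Cd9 is a member of both lists. The thinned counts still varied with the UMIs a cell held before thinning. That rho was -0.45 (P23) to -0.08 (P18) for precursor surface UMIs and 0.05 (P18) to 0.58 (P120) for myelin UMIs. The part of depth in the negative values was not tested. The rho of premyelinating with myelin UMIs was 0.74 at P5 and between 0.07 and 0.53 at later ages. Thinned cells with a UMI of both an OPC marker and a MOL marker were 3 of 33 at P5, 2 of 31 at P18, 0 of 40 at P19, 10 of 76 at P23, 2 of 19 at P120 and 4 of 33 at P132.

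**Figure D3:**
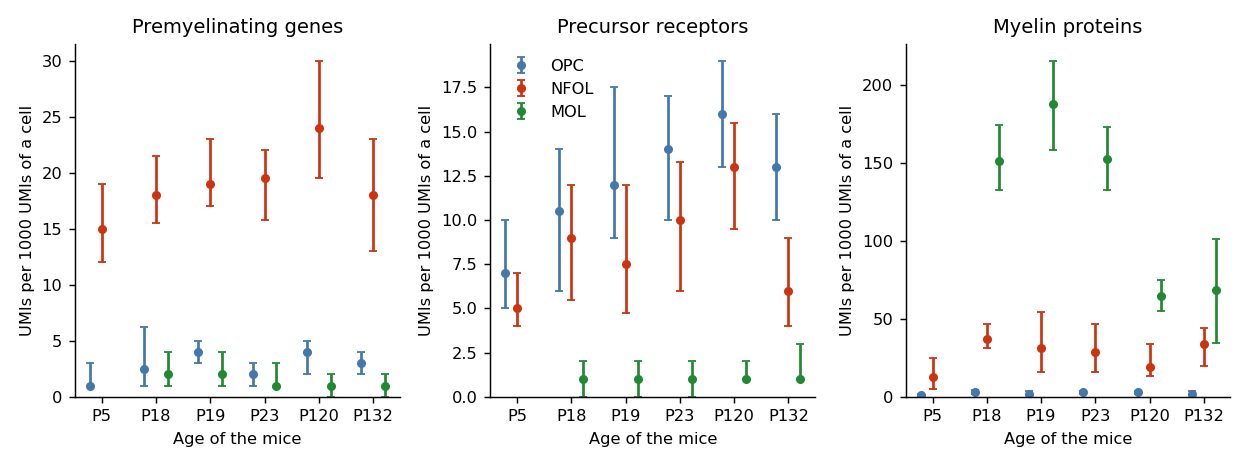
UMIs per cell, after thinning to 1000, of the premyelinating, precursor surface and myelin lists in OPC, NFOL and MOL at each age (points, medians; bars, quartiles). NFOL medians for premyelinating genes are 15 to 24 against at most 4 in the other clusters, and its myelin medians of 13 to 37 lie under those of MOL.

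Between P5 and the juvenile ages, a set of myelin genes rose in NFOL cells and many translation genes fell. In the edgeR quasi-likelihood fit over the 6 NFOL sums, with Benjamini-Hochberg adjustment over 2444 genes and a call at an adjusted p under 0.05, 33 genes rose (1.35%) and 77 fell (3.15%). P5 is a single pool, assumed to vary like the later ages. With the P5 cells of its second library alone (15 cells) 70 genes were called, and 104 with the first alone. Without any minimum level, the 3 juvenile ages all lay above P5 in 2558 of 13115 genes with a UMI (19.5%) and all below it in 2768 (21.1%).

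Of the myelin list, 16 genes were tested; Cd9, Cryab, Gjc3, Mobp, Sept4 and Tspan2 rose and none fell, with a median log2 change of 1.60 against 0.06 over all genes tested. Cryab, a small heat shock protein gene, went from 57.7 CPM at P5 to 1125, 671 and 1254 CPM at P18, P19 and P23, a log2 fold change of 4.00 ± 0.60 (SE, adjusted p = 0.000646). Sept4, a septin gene, had 1 UMI at P5 (5.24 CPM) and 117, 128 and 234 CPM at the juvenile ages. Its pooled ratio was 37.9, with a counting interval of 6.65 to 1511 (adjusted p = 0.00526). Mobp had no UMI at P5 and 85.2 to 176 CPM in the juveniles, at least 9.38-fold higher than the 3-count limit (adjusted p = 0.0132), a call lost with the second P5 library alone (15 cells). The tetraspanin gene Cd9 went from 509 CPM to 3958, 2481 and 3312 (log2 2.55 ± 0.51, adjusted p = 0.00436). Every juvenile value of these 4 genes lay above P5. In OPC the same held for Cryab, Mobp and Cd9, and not for Sept4. MOL cells numbered 1 at P5 and 112, 63 and 192 at P18, P19 and P23. The part of free myelin RNA in the NFOL values was not tested.

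Mbp did not pass: its levels differed by 0.42 ± 0.49 on the log2 scale (adjusted p = 0.780), from 5652 CPM at P5 to 7338 to 9815.

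Of the premyelinating list, 19 genes were tested; Kif19a, Neu4, Rras2 and Tmem2 rose, none fell, and the median was 0.50. Neu4, a sialidase gene, went from 157 CPM at P5 to 1125, 1342 and 604 (log2 2.55 ± 0.55, adjusted p = 0.00720). Rras2, a Ras-related GTPase gene, went from 15.7 CPM to 351, 85.2 and 324 (log2 3.83 ± 0.85, adjusted p = 0.00884), a call lost without P23 (0.0912). The 4 marker genes did not pass: Enpp6 differed by -0.20 ± 0.40 (adjusted p = 0.885), Bmp4 by -0.40 ± 0.47 (0.780), Tcf7l2 by 0.15 ± 0.43 (0.918) and Bcas1 by -1.02 ± 0.41 (0.192). Without a minimum level, 11 of 19 premyelinating genes with a UMI, 12 of 24 myelin genes, 9 of 18 galactolipid genes and 8 of 19 adhesion genes were above P5 at all 3 juvenile ages, against 19.5% of all genes. OPC shared part of this: the same counts there were 10 of 19, 8 of 25, 4 of 18 and 4 of 20, against 12.4% of all its genes. These counts are thus not particular to NFOL.

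Other genes that rose included Tppp, a tubulin polymerization protein of myelinating cells. It had no UMI at P5 and stood at 409, 351 and 182 CPM at P18, P19 and P23, at least 15.5-fold higher (adjusted p = 0.000646). Dct, the dopachrome tautomerase gene, had no UMI at P5 and 102, 85.2 and 121 CPM later, at least 7.13-fold higher (adjusted p = 0.00337). Tmem2 (at least 7.13-fold), Igsf11 (6.13-fold) and Chst8 (5.00-fold) also had no UMI at P5, and their calls (adjusted p = 0.0190, 0.0190 and 0.0280) were each lost with the second P5 library alone, and those of Igsf11 and Chst8 also with the first alone. Tmem2 and Chst8 were also lost without P23, Igsf11 without P19, and Igsf11 and Chst8 also without P120 or P132. The pooled ratios of Gas7 and A330102I10Rik, each with 1 UMI at P5, were 30.4 (5.30 to 1215) and 21.0 (3.62 to 844). Both calls were lost without P120 and without P132, and that of A330102I10Rik also with either P5 library alone.

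**Figure D4:**
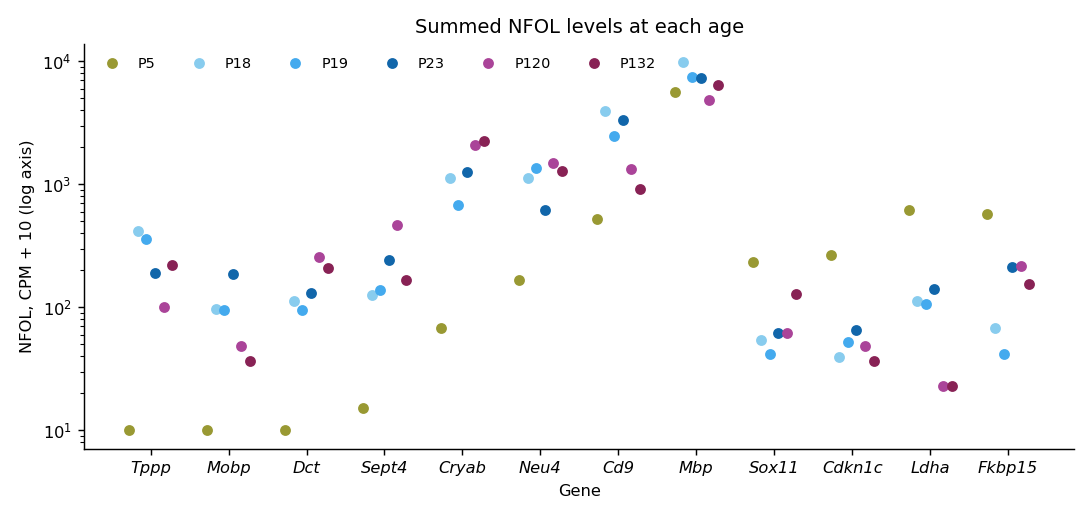
CPM plus 10 on a log axis in the NFOL sums of each age for 12 genes named in the comparisons with P5. Tppp, Mobp, Dct, Sept4, Cryab, Neu4 and Cd9 lie lower at P5 than at each juvenile age, and Sox11, Cdkn1c, Ldha and Fkbp15 lie higher.

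Genes of translation made up most of the decrease. Ribosomal protein genes, a list chosen after these data were seen, had 47 of 75 tested members fall and none rise, with a median log2 change of -1.46. Their summed level was 210099 CPM at P5 against 88741, 83454 and 92766 at P18, P19 and P23. Rps12 fell by 2.67 ± 0.40 on the log2 scale (adjusted p = 0.000646), and the translation elongation factor gene Eef1a1 went from 5385 CPM to 847, 990 and 1457 (log2 -2.41 ± 0.38, adjusted p = 0.000646). The processed pseudogene Gm8730 went from 2354 CPM to 161, 128 and 49.1 (log2 -4.73 ± 0.47, adjusted p = 1.28e-06). Reads of such copies can be shared with the parent gene, so its value is uncertain. The cells of P5 and P23 share a name prefix, and Eef1a1 and Gm8730 differed between these ages as given. The labels do not say what the prefix stands for, the ages are separate libraries, and the part of the library was not tested. Because ribosomal protein genes take a large share of the total, the fit was repeated without them, added after seeing the data: 25 genes then rose and 21 fell. They were left out of both the totals and the genes tested, so their own 47 decreases could not be called. The smaller number of decreases is therefore in part fixed by the setting.

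Outside translation, Sox11, a factor of immature neural cells, fell from 225 CPM at P5 to 43.8, 31.9 and 52.0 (log2 -2.43 ± 0.54, adjusted p = 0.00943). The cyclin-dependent kinase inhibitor gene Cdkn1c fell from 257 CPM to 29.2, 42.6 and 54.9 (log2 -2.59 ± 0.55, adjusted p = 0.00669), a call lost with the second P5 library alone (0.244). Ldha, lactate dehydrogenase, fell from 608 CPM to 102, 95.8 and 130 (log2 -2.55 ± 0.39, adjusted p = 0.000646). Fkbp15 fell from 561 CPM to 58.4, 31.9 and 202 (log2 -2.36 ± 0.49, adjusted p = 0.00585), and the synaptic organiser gene Cbln2 from 215 CPM to between 14.6 and 23.1 (log2 -3.45 ± 0.86, adjusted p = 0.0193), a call lost without P23 or with either P5 library alone. Of the cell cycle exit list, Cdkn1c, Ccnd1, Ccnd2, Ccng1 and Btg2 were lower than P5 at all 3 juvenile ages, 5 of 11 members against 21.1% of all genes. Ccnd1, Ccnd2 and Ccng1 are cyclin genes, so this is no count of exit genes alone.

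The same step in OPC was set beside it by a test of the difference between the clusters, with age as a block, added after these data were seen. NFOL differed from OPC in 8 of 5074 genes, with 3 higher (0.0591%) and 5 lower (0.0985%). None of 77 ribosomal protein genes was among them (median -0.13), and 70 of 77 were lower than P5 at all 3 juvenile ages in OPC (24.6% of all its genes) against 69 of 77 in NFOL (21.1%). Reep5, an endoplasmic reticulum-shaping protein gene, went from 152 CPM at P5 to between 639 and 949 in NFOL and from 216 CPM to between 197 and 247 in OPC (log2 difference 2.29 ± 0.43, adjusted p = 0.000172). Mbp was lower by 3.14 ± 0.55 in the NFOL step than in the OPC step (adjusted p = 3.51e-05), since it went from 21.6 CPM at P5 to between 164 and 443 CPM in OPC. In thinned granule cells, which should lack Mbp, a UMI was found in 2.35% at P5 and 6.25% to 19.1% later, and OPC moved the same way, with 0.585% at P5 and between 7.41% and 20% later; the part of free RNA in the OPC value was not tested. S100a16, a calcium-binding protein gene, was lower by 1.98 ± 0.34 (adjusted p = 2.66e-05), Ldha by 2.06 ± 0.43 (0.00246) and S100b by 1.48 ± 0.36 (0.0342). Fabp5, a fatty acid-binding protein gene, was higher by 1.70 ± 0.38 (0.00947). Without P23, 1 call was left, and without P18, 5.

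Few genes passed the test between adult and juvenile NFOL cells. Of 2444 genes, 4 were higher (0.164%) and 3 lower (0.123%) in the adults, and 214 had an unadjusted p under 0.05. DESeq2 called 6 genes, 3 of them shared. No gene was called without P120, which has 19 cells, and 56 were called without P19, 17 without P18 and 3 without P132 or without P5. Age, line and sort cannot be told apart in this comparison.

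The higher genes were Gm8730, PISD, Gm8186 and Ptcra. PISD, so spelled in the table, the name of a phosphatidylserine decarboxylase, was at 190, 213 and 147 CPM in the juveniles and 1296 and 974 in the adults (log2 2.65 ± 0.36, adjusted p = 0.000254). It was also higher in the adults in OPC (437 and 752 against 79.5 to 164) and MOL (219 and 323 against 17.2 to 26.9). Gm8730 was at 161, 128 and 49.1 CPM in the juveniles and 959 and 803 in the adults (log2 3.16 ± 0.44, adjusted p = 0.000254), and OPC and MOL likewise held more in the adults. Gm8186, a further processed pseudogene, was higher by 2.05 ± 0.44 (0.0338), with 324 and 224 CPM against 57.8 to 74.5. Ptcra, the pre-T-cell receptor alpha gene, was higher by 4.80 ± 0.97 (0.0237), but stood at 454 CPM at P120 and 52.7 at P132, so the 2 adults differ widely. P19 and P120 share a cell-name prefix, of unstated meaning, and stood at 128 and 959 CPM of Gm8730. The part of the library in this difference was not tested. The calls of Gm8730 and PISD were lost without P120, and that of Gm8186 without P5, P23, P120 or P132. The Ptcra call was lost without P23 (edgeR adjusted p = 0.0846). Ptcra was tested in 9 of the alternative settings, against 13 or 14 for the other higher genes. A setting in which it was not tested was not counted as a lost call, so its call is not shown to hold without P120.

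The lower genes were Rras2, Hspa8 and Ctsl. Rras2 had 1 UMI of 153093 in the adults against 144 of 508407 in the juveniles, a ratio of 43.4 with a counting interval of 7.66 to 1724 (adjusted p = 0.00889). MOL held 93.6 to 334 CPM of it in the juveniles and 14.1 and 21.8 in the adults. Hspa8, a constitutive heat shock chaperone gene, was at 685 to 809 CPM in the juveniles and 181 and 211 in the adults (log2 -1.97 ± 0.39, adjusted p = 0.0237), and was lower in adult OPC and MOL too. Ctsl, the lysosomal protease cathepsin L, was at 288 to 387 CPM in the juveniles and 38.9 and 92.2 in the adults (log2 -2.33 ± 0.48, adjusted p = 0.0237). The calls of Rras2 and Ctsl were lost without P5, P23, P120 or P132, and that of Hspa8 without P120 or P132.

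Cholesterol synthesis genes had lower summed levels in the adults, with none called when all ages were fitted. All 11 tested members had a negative log2 change, with a median of -1.81 against -0.02 over all genes tested. Their NFOL sum was 4644, 1416 and 2511 CPM in the juveniles and 881 and 961 in the adults, so no adult reached a juvenile value; P5 stood at 2716. Hmgcs1, at the head of the pathway, was at 891, 128 and 327 CPM in the juveniles and 77.8 and 119 in the adults (log2 -2.14 ± 0.62, adjusted p = 0.173). Sqle, squalene epoxidase, was at 190, 31.9 and 179 CPM against 13.0 and 13.2 (log2 -3.33 ± 0.86, adjusted p = 0.103). Fdps, farnesyl diphosphate synthase, was at 424, 63.9 and 225 CPM against 25.9 and 39.5 (log2 -2.79 ± 0.71, adjusted p = 0.103). P19, the one C57Bl/6 pool, was the lowest juvenile for all 3. Without P19 all 3 passed, with edgeR adjusted p of 1.16e-05 for Hmgcs1, 0.000211 for Sqle and 1.45e-05 for Fdps. They also passed with no filter on low counts (0.00641, 0.00811 and 0.0037), and Sqle passed without P18 (0.0173). Without P120 the adjusted p of each was 0.906.

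Without a minimum level, 13 of 24 cholesterol genes had every NFOL adult value under every juvenile one, against 1152 of 13115 genes with a UMI in NFOL (8.78%). The same held for 7 of 24 in OPC (6.29% of all its genes) and 20 of 24 in MOL (7.75% of all its genes). The MOL sums were 6687, 4567 and 5367 CPM in the juveniles against 1483 and 1088 in the adults, and the OPC sums 1254, 1150 and 1651 against 707 and 597. In the tests of a difference from OPC or MOL none of the 11 and 23 cholesterol genes tested was called. Of the other lists, 5 of 16 fatty acid genes, 7 of 19 premyelinating genes (Enpp6, Itpr2, Tmem2, Rras2, Cnksr3, Tmem163 and Kif19a) and 6 of 24 myelin genes (Mbp, Mobp, Cnp, Cldn11, Tspan2 and Cd9) had no overlap with the adults lower.

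The adults were higher without overlap in 1221 of 13115 genes (9.31%). Among immediate early and heat shock genes, which respond to cell activation and to dissociation, 7 of 15 with a UMI did so: Jun, Jund, Ier2, Dusp1, Nr4a1, Hspa1a and Dnajb1. Jun, a subunit of the AP-1 factor, was at 365, 373 and 381 CPM in the juveniles and 506 and 882 in the adults. Dusp1 was at 13.2 CPM or less at all 6 ages. The same count was 1 of 16 in OPC (12.8% of all its genes) and 3 of 16 in MOL (22.1% of all its genes), and the list's sum was 1519 to 1927 CPM in the juveniles and 1698 and 2133 in the adults, which overlap. Of the lineage factors, Sox8, Nkx2-2, Zfp536 and Nfia were higher in both adults, 4 of 17. The count was 3 of 16 in OPC, with Sox8 among them, and 7 of 17 in MOL, with Nkx2-2, Zfp536 and Nfia. The trait is thus not particular to NFOL.

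**Figure D5:**
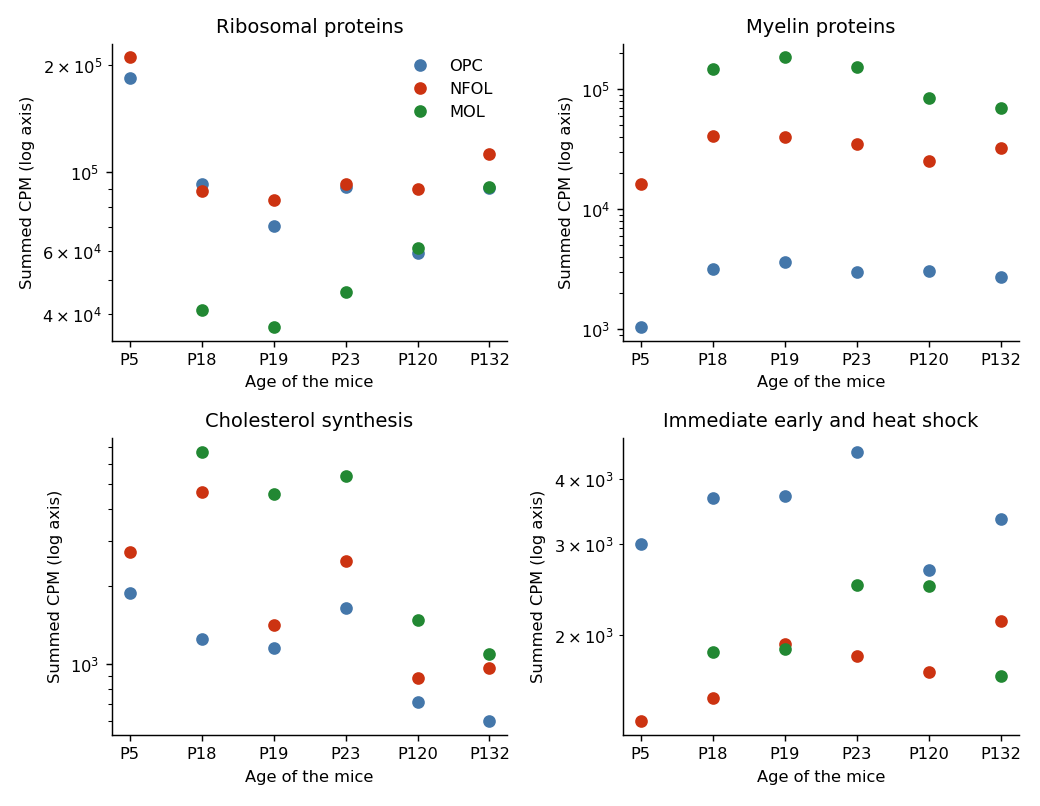
Summed CPM on a log axis of ribosomal protein, myelin, cholesterol synthesis, and immediate early and heat shock genes in OPC, NFOL and MOL at each age. Ribosomal protein genes stand highest at P5 in NFOL and OPC, and cholesterol genes are lowest at P120 and P132 in NFOL, OPC and MOL.

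The difference between adult and juvenile ages was then compared between clusters, with age as a block since all cells of an age come from the same animals. Against OPC, edgeR called 0 of 2513 genes higher (0%) and 0 lower (0%), with 229 at an unadjusted p under 0.05 and 0 by DESeq2. Against MOL, 7 of 6577 were higher (0.106%) and 10 lower (0.152%), with 645 at an unadjusted p under 0.05 and 3 by DESeq2. With RLE scaling in place of TMM, 3 were higher and 9 lower.

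Ptprz1 was lower by 3.68 ± 0.55 on the log2 scale in this contrast (adjusted p = 0.00231). It was at 204, 298, 428, 337 and 369 CPM in NFOL from P18 to P132, and at 2.15, 2.99, 19.9, 72.5 and 337 in MOL, so both adult MOL values exceeded the juvenile ones while the NFOL values of the stages overlapped. Ptprz1 is an OPC marker, and all 5 OPC markers were higher in both MOL adults: their MOL sum was 2.15, 23.9 and 34.5 CPM in the juveniles and 147 and 531 in the adults. Astrocyte markers in MOL summed to 98.6 to 155 CPM in the juveniles and 292 and 450 in the adults. Their part in the MOL values was not tested. Apoe, a lipid carrier gene, was lower by 2.35 ± 0.37 (0.00276): MOL held 77.7 to 186 CPM in the juveniles and 765 and 691 in the adults, while NFOL ran from 192 to 879 with overlap. Tuba1a was higher by 1.60 ± 0.24 (0.00231), with 814, 971 and 1146 CPM in juvenile MOL and 379 and 320 in adult MOL against overlapping NFOL values. Meg3, a neuronal noncoding RNA and 1 of the neuron markers, was lower by 3.42 ± 0.65 (0.0153). Summed neuron markers in MOL were at 1183 CPM at P132 and 146 to 158 at the other 4 ages, and their part was not tested. Leaving out P120 raised the count from 17 to 186, and leaving out P23 lowered it to 5. The Tuba1a call was lost without P19, that of Apoe without P23, and that of Meg3 without P19, P23 or P132.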

How the data were processed

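The labels describe single cells of mouse dentate gyrus; UMI counts of 27933 genes in 24185 cells were deposited by the authors, together with each cell's age, line, sex and cluster. Cell Ranger and the build mm10 are named in the submitters' processing notes; its version, cell filters, doublet removal and clustering are not given in the sources used here. The counts are whole numbers, as deposited, with 1114 to 19989 per cell. Doublets were not called here.

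NFOL counts were summed per age (10 or more cells). Levels are CPM; comparisons of levels add a pseudocount of 10. Stage tests used edgeR 4.0.16 (limma 3.58.1, R 4.3.3): TMM, filterByExpr, the quasi-likelihood F test, two-sided, Benjamini-Hochberg over all genes tested, with 1 spread shared by all ages. Tests between clusters used the interaction term with age as a block, since clusters of an age come from the same animals: deviations from the stage means correlated at 0.165 to 0.285 with OPC and 0.191 to 0.452 with MOL. DESeq2 1.42.0 was an alternative. Shares were tested by exact permutation over ages. A value of 0 allows up to 3 counts.

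Named genes passed the test at 0.05, averaged at least 50 CPM and had no overlap between ages, with at most 10 per direction; description genes were the leading 20 over OPC and MOL and the leading 10 over all clusters. Some genes are not reported here. The members, lists and rules were chosen with earlier results of these data known. Of the list genes, Gas5 was not found in the table. On simulated counts with 200 genes changed, the adult against juvenile test recovered 0.559% of 2-fold changes among 2407 genes and 69.6% of 4-fold ones among 2387; the juvenile against P5 test recovered 0.581% among 2441 and 48.0% among 2496. In the simulation every gene had the same spread, and no effect of line, sort or pool was added. For the P5 test the adult ages were changed together with the juvenile ones. The real data differ in this, so the recovered shares need not hold for them. Ages without NFOL cells entered only the shares.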

Additional observations from a re-analysis of the deposited data

Results flagged for a closer look

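These are named genes whose change with age differed between NFOL cells and a neighbouring cluster by the edgeR test of the difference itself. Between adult and juvenile ages, the change in NFOL exceeded that in MOL (log2) by 1.83 for Slc22a23, 1.60 for Phyhipl, 1.60 for Tuba1a, 1.30 for Cryab and 1.14 for the dynein light chain gene Dynll1. It was smaller for Lmo4 (-3.94), Ugdh (-3.91), Ptprz1 (-3.68), Meg3 (-3.42), Apoe (-2.35), Pdcd4 (-2.04), Zbtb20 (-1.68) and Actb (-1.57). Lmo4 stood at 39.5 and 64.8 CPM in adult NFOL and 87.6 to 136 in juvenile NFOL, against 25.4 and 143 in adult MOL and 5.97 to 12.9 in juvenile MOL. Phyhipl stood at 843 and 856 CPM in adult NFOL and 483 to 613 in juvenile NFOL, against 261 and 211 in adult MOL and 392 to 445 in juvenile MOL.

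Between P5 and the juvenile ages, the change in NFOL exceeded that in OPC by 9.78 for Tmem2, 2.29 for Reep5 and 1.70 for Fabp5. The Tmem2 value rests on 0 UMIs in NFOL at P5 and in OPC at P18 and P19, so its size depends on the prior count and is no measure of fold. The change was smaller for Mbp (-3.14), Ldha (-2.06), S100a16 (-1.98) and S100b (-1.48). S100b, a calcium-binding protein gene, went from 965 CPM at P5 to 1342 to 2075 CPM in NFOL.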

How the results depend on the processing

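Over 84 alternatives to the main values, 55 left the direction and the side of the threshold, or the count within 1.5 times, as reported. Genes called between adult and juvenile ages (7 as reported) numbered 19 with no filter on low counts, 0 with a minimum of 20 cells, 3 with juvenile and adult ages alone, 8 without cells holding a microglia marker, and 0 to 56 leaving out 1 age. From P5 to the juvenile ages (110) they numbered 70 with the second P5 library alone. With ribosomal protein genes left out of the totals and of the genes tested they numbered 46. Leaving out 1 age gave 87 to 155. Against OPC between adult and juvenile ages (0) there were 5 with no filter, 4 without cells of very many UMIs and 0 to 3 leaving out 1 age. Against MOL (17) there were 57 with no filter, 3 by DESeq2, 186 with a minimum of 20 cells, 154 without cells of very many UMIs and 5 to 186 leaving out 1 age. Against OPC from P5 to the juvenile ages (8) there was 1 by DESeq2 and 1 to 12 leaving out 1 age. In the fits without the age as a block (no pairing of the clusters), 0 genes were called against MOL and 0 against OPC in either contrast. Genes over both OPC and MOL (72) numbered 38 with a pseudocount of 50. The causes were not tested. Of the named calls, 14 of 23 from P5 to the juvenile ages held under every alternative in which the gene was tested. The 23 include the list genes Cd9, Neu4 and Rras2, which were added outside the rule of 10 per direction. Cd9 and Neu4 held and Rras2 did not. Of the 14 that held, Sox11 was tested in 12 settings, Dct, Ldha, Rps12 and Rpl10a in 13, and the rest in 14. In the other contrasts, 0 of 7 between adult and juvenile ages, 0 of 14 against MOL and 0 of 7 against OPC held. In all, 0 reversed. The share differences ranged from 1.28 to 2.12 and 15.3 to 24.1 points leaving out 1 age. Leaving out P5 could not be run for the contrasts with P5.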
